A study of Homo sapiens with 6 samples.

Results

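Transcripts of 10 genes of the bone morphogenetic protein (BMP) pathway were examined in BT549 cells, an established basal-like breast cancer line, with and without AS1842856. The 10 were picked by name out of the 58735 genes of the deposited count table. They comprised the ligand genes BMP2, BMP4 and BMP7, the proteinase gene BMP1, the receptor genes BMPR1A and BMPR2, the pseudoreceptor gene BAMBI, the SMAD genes SMAD9 and SMAD6, and the gene of the secreted inhibitor GREM1. Of the 10, 9 had enough reads to be tested and GREM1 did not. With AS1842856, transcripts of all 3 ligand genes rose, by 21.6-fold for BMP2, 10.8-fold for BMP7 and 3.50-fold for BMP4. The other called members moved less. BMPR2 was 1.41-fold and SMAD9 1.16-fold higher, and SMAD6 was 1.57-fold, BMP1 1.21-fold and BAMBI 1.14-fold lower.

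The series held 6 RNA-Seq libraries, 3 from cells given the solvent DMSO and 3 from cells given AS1842856 for 48 h, with replicates called A, B and C in each group. The compound AS1842856 acts on FOXO1, a forkhead transcription factor, by blocking its contact with DNA. The sample labels give a dose of 200 nM, while the methods of the study give a higher dose, and which of them applies was not resolved. All libraries shared 1 cell line and 1 time point, and the AS1842856 libraries shared 1 labelled dose, so these values describe BT549 cells under that treatment.

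Library totals ranged from 15289500 to 22981832 counts, and the totals of the groups overlapped. Over all genes, replicates differed from each other beyond sampling noise (chi-square per degree of freedom from 2.32 to 3.12), and the common biological coefficient of variation was 0.0374. Levels are TMM-normalized CPM, that is, counts scaled to a common library size. The test was edgeR's quasi-likelihood test, fitted over 14338 genes, and a gene was called when its Benjamini-Hochberg adjusted p was under 0.05. The line was checked against its known features. VIM, CD44, FN1 and CAV1, which mesenchymal basal-like cells express, lay between 415 and 1370 CPM in every library, while the oestrogen receptor gene ESR1 had 1 count and the progesterone receptor gene PGR 7 counts in all. With AS1842856, FN1 was higher and VIM, CD44 and CAV1 were lower. ERBB2, the gene of the HER2 receptor, had 46.7 ± 2.10 CPM in DMSO and 25.04 ± 1.52 CPM with AS1842856 (SD, n = 3 each). Of 6 markers of other cell types, 4 had any count, CD3E and CDH5 were at 0, and the summed level of the 6 was 1.18 to 1.76 CPM in DMSO and 2.76 to 3.93 CPM with AS1842856, most of it from the leukocyte gene PTPRC. The part of these markers in the results was not tested. In bulk libraries, a change in the share of cells that make a transcript and a change in its amount per cell cannot be told apart.

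BMPs are secreted dimers of the TGF-beta superfamily, first known for inducing bone and later for patterning embryos and tissues. A dimer gathers type I receptors (such as BMPR1A) and type II receptors (such as BMPR2), the type II kinase phosphorylates the type I kinase, and the type I kinase phosphorylates the receptor SMADs SMAD1, SMAD5 and SMAD9. These bind SMAD4, enter the nucleus and switch on genes such as those of the ID proteins. The pathway is held back outside the cell by antagonists such as gremlin and noggin, at the membrane by BAMBI, and inside the cell by SMAD6 and SMAD7. In breast carcinoma cells, BMPs have been linked to growth, migration and stem-like traits, with effects that depend on the cell.

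The bases in front of a transcription start are shown for the members in the RefSeq promoter table with the largest changes, since the treatment targets a DNA-binding factor. The table (build GRCh38.p14) held 7 of the 10 members, in 10 windows of 250 bases before a RefSeq start. BMP2, BMP7 and BMP1 were not among them. Capitals mark letters of 2 of the motifs searched on both strands, GGCGCC, a GC-rich sequence that BMP SMADs can bind, and TGTTT, the core of the FOXO site, which reads AAACA on the other strand. For BMP4 the window was chr14:53955051-53955300 on the minus strand. BMP4 had further RefSeq starts, and this was its only window without annotated exon bases. For BMPR2 the window was chr2:202376077-202376326 on the plus strand. For SMAD6 it was chr15:66701986-66702227 on the plus strand, cut to the 242 bases before the first annotated exon base.
BMP4: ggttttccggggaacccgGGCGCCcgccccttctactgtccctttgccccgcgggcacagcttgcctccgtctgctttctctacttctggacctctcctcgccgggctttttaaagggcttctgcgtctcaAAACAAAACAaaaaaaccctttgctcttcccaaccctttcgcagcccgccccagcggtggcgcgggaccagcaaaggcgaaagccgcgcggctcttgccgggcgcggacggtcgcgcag
BMPR2: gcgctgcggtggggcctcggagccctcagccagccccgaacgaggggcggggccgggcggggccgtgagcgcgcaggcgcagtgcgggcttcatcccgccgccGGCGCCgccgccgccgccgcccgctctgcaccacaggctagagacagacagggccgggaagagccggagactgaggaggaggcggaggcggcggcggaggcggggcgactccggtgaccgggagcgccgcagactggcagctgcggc
SMAD6: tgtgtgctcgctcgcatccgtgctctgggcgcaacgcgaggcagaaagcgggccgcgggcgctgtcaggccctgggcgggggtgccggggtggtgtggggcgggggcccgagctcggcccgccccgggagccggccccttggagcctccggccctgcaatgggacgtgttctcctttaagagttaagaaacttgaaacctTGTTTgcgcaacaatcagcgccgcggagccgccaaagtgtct

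The full FOXO site TGTTTAC was found in 0 of the 10 windows, and 2.98% of all 34943 promoters in the table held it within the same length. Its core TGTTT, which is also part of the full site, was found in 3 windows of 2 members, BMP4 and SMAD6, against 40.4% of all promoters. In the BMP4 window printed above it began 119 and 114 bases before the start, both on the strand opposite to the gene. In a BMP4 window not printed it began 57 bases before its own start. In that of SMAD6 it began 50 bases before the start. GGCGCC was found in 4 windows of 4 members, BMP4, BMPR2, BAMBI and GREM1, against 16.4% of all promoters. It lay 232 bases before the printed BMP4 start and 147 bases before the BMPR2 start. G and C made up 63.6% to 81.2% of the windows with GGCGCC and 47.2% to 78.4% of the others. The rate in promoters of like G and C content was not computed, so no excess is read. The TCF/LEF sites CTTTGAT and CTTTGAA were each found in 0 of the 10 windows, against 2.27% and 3.82% of all promoters. These windows show letters only and hold no measurement of binding. The printed RefSeq starts were not all at the GENCODE gene start, with an offset along the strand of 3711 bases for BMP4, -609 bases for BMPR2 (before the GENCODE start) and 8 bases for SMAD6.

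Of the 9 members tested, 5 were called higher and 3 lower with AS1842856, where 56.0% of all genes tested were called, 27.6% higher and 28.4% lower. In 8 of the 9 the libraries of the groups did not overlap, as in 59.9% of all genes tested. The median log2 fold change of the 9 members was 0.21, beside 0.0030 over all genes tested. BMP2 reached the filter on low counts in 1 of 3 DMSO libraries and 3 of 3 AS1842856 libraries and so entered the test through its AS1842856 level, while the other 8 reached it in all libraries of both groups. Members called with a log2 fold change of at least 1 in size numbered 3, the ligands, beside 10.6% of all genes tested. No excess is read from these counts of members. The members were chosen with earlier results of these data known, and BMP2 is among the 3.

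**Figure D1:**
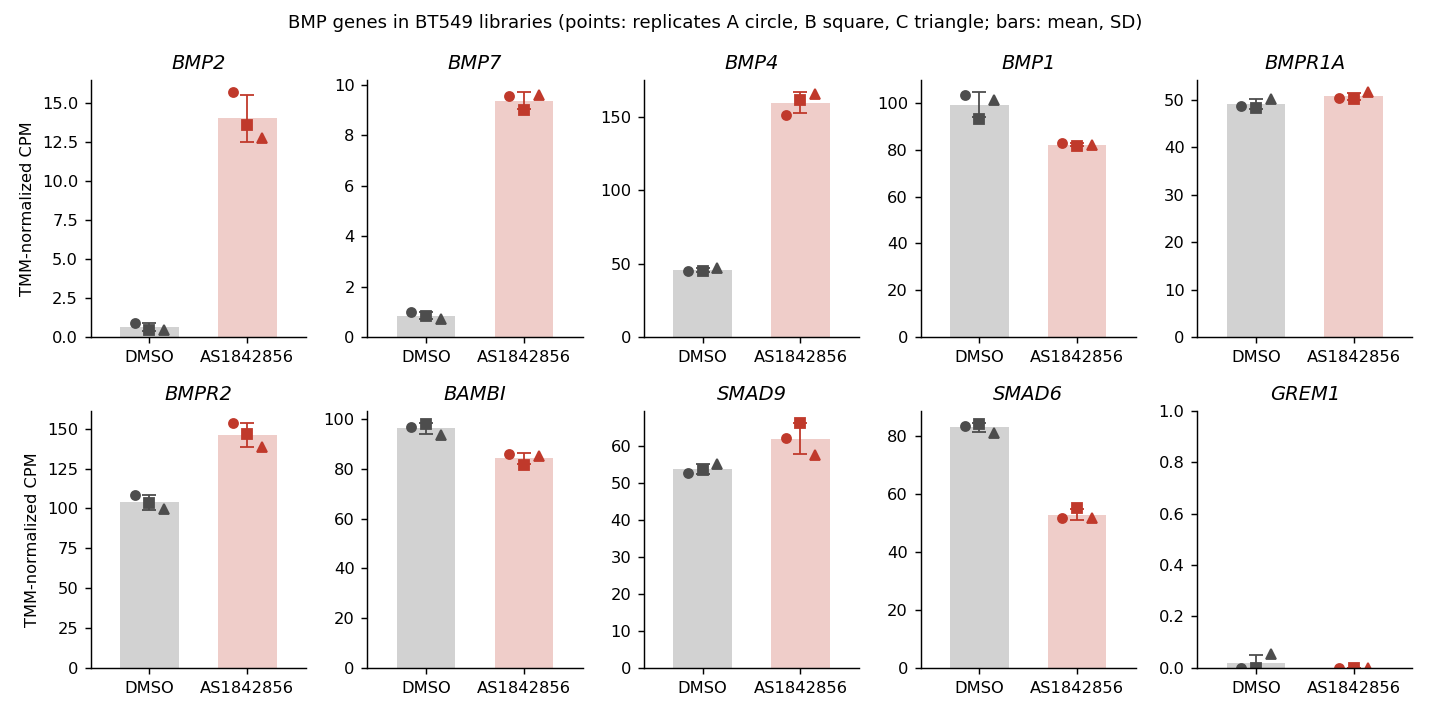
TMM-normalized CPM (vertical axis, from 0, with its own scale for each gene) of the 10 BMP genes in DMSO (grey) and AS1842856 (red) libraries; points are replicates A, B and C, and bars with whiskers are the mean and SD of 3 libraries. BMP2, BMP7 and BMP4 stand far higher with AS1842856, BMPR1A overlaps between the groups, and GREM1 is at or near 0 throughout.

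BMP2 (ENSG00000125845, chromosome 20 from 6767664 to 6780280, plus strand) encodes a strongly bone-inducing ligand that signals mainly through BMPR1A and BMPR2. The gene had 20, 7 and 9 counts in the DMSO libraries A, B and C, or 0.911, 0.456 and 0.484 CPM, and 262, 310 and 228 counts with AS1842856, or 15.7, 13.6 and 12.8 CPM. It was thus close to the lower end of what these libraries could measure in DMSO and plainly present in every AS1842856 library, with no overlap. The mean went from 0.617 ± 0.255 to 14.0 ± 1.52 CPM (SD, n = 3 each), and the log2 fold change was 4.43 with a standard error of 0.20 (adjusted p = 4.56e-60, edgeR). Its 95% interval ran from 4.04 to 4.82. The change ranked 33 of 14338 from the highest. When any 1 library was left out it lay between 4.26 and 4.87, the latter without DMSO replicate A, which held most of the few DMSO reads.

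BMP7 (ENSG00000101144, chromosome 20 from 57168748 to 57266629, minus strand) encodes a ligand of the OP-1 subgroup, known from kidney and eye development, that also uses the type I receptor ACVR1. Its DMSO libraries held 22, 13 and 13 counts (1.002, 0.846 and 0.700 CPM), and its AS1842856 libraries 159, 205 and 171 counts (9.54, 8.98 and 9.59 CPM). As with BMP2, a few reads in every DMSO library stood against many in every AS1842856 library. The log2 fold change was 3.44 with a standard error of 0.21 (95% interval 3.03 to 3.85, adjusted p = 1.17e-40, edgeR), from 0.849 ± 0.151 to 9.37 ± 0.340 CPM (SD, n = 3 each). It ranked 72 from the highest and lay between 3.31 and 3.59 when any 1 library was left out.

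BMP4 (ENSG00000125378, chromosome 14 from 53949736 to 53958761, minus strand) encodes the closest relative of BMP2 among the ligands. Unlike the other two ligand genes it was well expressed without the compound, with 44.8, 44.9 and 47.0 CPM in DMSO, and it had 151, 162 and 166 CPM with AS1842856. The libraries were close to each other within each group and far apart between the groups. The mean went from 45.6 ± 1.24 to 159.5 ± 7.32 CPM (SD, n = 3 each), and the log2 fold change was 1.81 with a standard error of 0.05 (95% interval 1.72 to 1.90, adjusted p = 4.67e-103, edgeR). It ranked 250 from the highest, and BMP4 had the smallest fold of the 3 ligands but the largest gain in CPM.

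**Figure D2:**
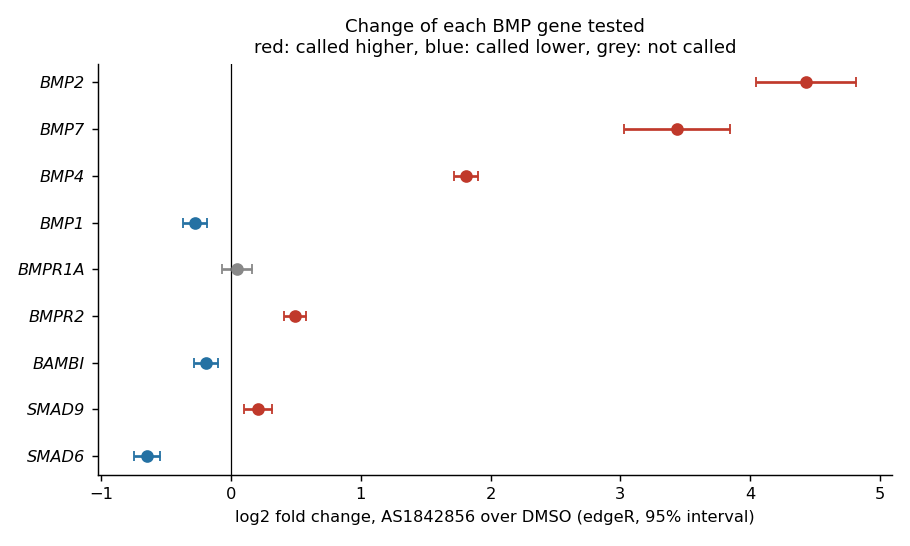
Log2 fold change, AS1842856 over DMSO (horizontal axis), of the 9 BMP genes tested with edgeR; points are estimates, whiskers 95% intervals, red called higher, blue called lower and grey not called. The ligand genes lie at 1.81 or above, and the other 6 genes lie between -0.65 and 0.49.

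Levels were compared between genes on the deposited FPKM, which are divided by gene length as well as library size. On that scale the summed level of BMP2, BMP4 and BMP7 was 15.02 ± 0.361 FPKM in DMSO and 57.0 ± 1.87 FPKM with AS1842856 (SD, n = 3 each). BMP4 gave 97.8% ± 0.655 of the sum in DMSO and 90.2% ± 1.11 with AS1842856. BMP2 gave 1.14% ± 0.478 and 6.81% ± 0.978, and BMP7 1.04% ± 0.201 and 3.02% ± 0.162. BMP4 therefore stayed the main ligand transcript in all 6 libraries, while the shares of BMP2 and BMP7 were each higher in every AS1842856 library than in any DMSO library. These shares were computed after the data were seen and are given without a test.

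The other BMP-group ligand genes were mostly too low to test. Of 11, 8 were not tested, among them 3 without a count in any library. GDF6, BMP3 and BMP6 were tested. GDF6 and BMP6 reached the filter on low counts in their AS1842856 libraries but in 0 of the DMSO libraries, so they could enter the test only as higher genes, and no direction is read from this list. GDF6, a ligand of joint and skull development, had 0, 1 and 3 counts in DMSO and 48, 46 and 52 with AS1842856. The ratio of its summed counts, 146 against 4, was 35.6 on TMM-scaled library sizes (exact 95% interval 13.6 to 132.4, counting error only). Its fitted log2 fold change of 5.04 depends on so few DMSO reads, and was 6.27 without DMSO replicate C and 4.37 without DMSO replicate A. BMP3, which antagonizes bone-inducing BMPs, had 1.23, 0.781 and 1.56 CPM in DMSO and 1.68, 2.28 and 2.52 CPM with AS1842856, and the log2 fold change was 0.84 with a standard error of 0.30 (adjusted p = 0.0106, edgeR). That call was lost with DESeq2 (adjusted p = 0.0738), with limma on log2(FPKM + 1) without a filter (adjusted p = 0.0963), without DMSO replicate B (log2 fold change 0.64, adjusted p = 0.0772) and without AS1842856 replicate C (0.72, adjusted p = 0.0631). BMP6, under 1 CPM on average, was called with a log2 fold change of 1.22 and an adjusted p of 0.0196 (edgeR). The call was lost at nearly the same size with DESeq2 (1.21, adjusted p = 0.15) and without a filter on low counts (1.20, adjusted p = 0.0567). It was also lost with limma on log2(FPKM + 1) without a filter (adjusted p = 0.117), without DMSO replicate C (0.77, adjusted p = 0.201) and without AS1842856 replicate B (0.94, adjusted p = 0.167), and the log2 fold change ran from 0.77 to 1.54 when any 1 library was left out. BMP8A and BMP8B are near-identical copies whose reads could be split between them, and neither was tested.

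BMP1 (ENSG00000168487, chromosome 8 from 22164736 to 22212326, plus strand) carries the name of the family but encodes a metalloproteinase that trims procollagens and cleaves chordin, an antagonist that holds BMPs. It had 103, 93.1 and 101 CPM in DMSO and 82.8, 81.6 and 82.2 CPM with AS1842856. Every AS1842856 library lay below every DMSO library, though the gap was small. The mean fell from 99.3 ± 5.40 to 82.2 ± 0.609 CPM (SD, n = 3 each), and the log2 fold change was -0.28 with a standard error of 0.05 (95% interval -0.37 to -0.18, adjusted p = 4.96e-08, edgeR). Of its 4 relatives and enhancers, 3 were tested, 1 was higher and 1 lower, beside 56.0% called among all genes tested. The median of their log2 fold changes was 0.23. No direction is read from this list, because TLL1 could enter the test only as a higher gene. TLL1, a proteinase of the same family that passed the filter through its AS1842856 libraries alone, rose from 0.435 ± 0.0627 to 5.57 ± 0.380 CPM, and its log2 fold change was 3.67 with a standard error of 0.28 (adjusted p = 1.21e-28, edgeR). PCOLCE2, which speeds up procollagen trimming, fell from 22.2 ± 2.07 to 17.0 ± 1.93 CPM (SD, n = 3 each), and the log2 fold change was -0.38 (adjusted p = 0.000108, edgeR). Of the summed FPKM of BMP1 and TLL1, BMP1 held 99.6% ± 0.0746 in DMSO and 93.7% ± 0.414 with AS1842856.

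The receptors did not move alike. BMPR1A (ENSG00000107779, chromosome 10 from 86756601 to 86932838, plus strand), a type I receptor of BMP2 and BMP4, had 48.7, 48.2 and 50.2 CPM in DMSO and 50.2, 50.1 and 51.6 CPM with AS1842856. The groups overlapped. Its means were 49.0 ± 1.03 and 50.7 ± 0.813 CPM (SD, n = 3 each), and it was not called, with a log2 fold change of 0.05, a standard error of 0.06 and an adjusted p of 0.522 (edgeR). The 95% interval of the difference ran from -0.07 to 0.16 on the log2 scale.

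BMPR2 (ENSG00000204217, chromosome 2 from 202376936 to 202567751, plus strand) encodes the type II receptor that is specific to BMPs. It had 108, 103 and 99.7 CPM in DMSO and 153, 147 and 138 CPM with AS1842856. All 3 treated libraries were above all 3 controls. The mean rose from 104 ± 4.44 to 146 ± 7.47 CPM (SD, n = 3 each), a fold of 1.41 and a log2 change of 0.49 with a standard error of 0.04 (95% interval 0.41 to 0.58, adjusted p = 5.23e-24, edgeR).

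BAMBI (ENSG00000095739, chromosome 10 from 28677342 to 28682939, plus strand) encodes a membrane protein that resembles a type I receptor but lacks the kinase domain, and so blocks signaling. It had 96.8, 98.1 and 93.8 CPM in DMSO and 85.9, 81.6 and 85.1 CPM with AS1842856. The groups did not overlap, with AS1842856 the lower. The mean fell from 96.2 ± 2.24 to 84.2 ± 2.26 CPM (SD, n = 3 each), and the log2 fold change was -0.19 with a standard error of 0.05 (95% interval -0.29 to -0.10, adjusted p = 0.000131, edgeR).

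Of 9 further receptor and co-receptor genes, 7 were tested, 1 was higher and 3 were lower. The 4 called of 7 are close to the 56.0% called over all genes, and the median of their log2 fold changes was -0.15. ACVR1, the type I receptor ALK2, had 17.7, 19.7 and 16.0 CPM in DMSO and 36.5, 35.7 and 39.8 CPM with AS1842856. It rose by 1.07 on the log2 scale with a standard error of 0.08 (adjusted p = 1.21e-30, edgeR). RGMB, a co-receptor, fell from 43.9 ± 2.14 to 27.9 ± 1.05 CPM (SD, n = 3 each), and the log2 fold change was -0.66 with a standard error of 0.07 (adjusted p = 3.79e-18, edgeR). RGMB shares exonic bases with the antisense gene RGMB-AS1, which held 12.9% as many counts. ACVR2A, a type II receptor shared with activins, went from 8.41 ± 0.871 to 5.69 ± 1.39 CPM, and the log2 fold change was -0.58 (adjusted p = 0.000202, edgeR). The ACVR2A call held in every edgeR and DESeq2 setting and was lost with limma on FPKM, with a log2 fold change of -0.53 on log2(FPKM + 0.1) (adjusted p = 0.0535) and -0.29 on log2(FPKM + 1) (adjusted p = 0.0521 and 0.108 with and without a filter). ACVR2A shares 430 exonic bases with ORC4 on the other strand, which had 308% as many counts, and the part of ORC4 reads in the change was not tested.

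Within the type I receptors, BMPR1A held 47.3% ± 3.32 of the summed FPKM in DMSO and 31.3% ± 0.915 with AS1842856 (SD, n = 3 each). ACVR1 held 48.9% ± 2.78 and 65.8% ± 0.797, and BMPR1B 3.72% ± 1.34 and 2.95% ± 0.234. BMPR1A and ACVR1 were thus about level in DMSO, and ACVR1 was ahead in every AS1842856 library. Within the type II receptors, BMPR2 held 84.6% ± 1.29 in DMSO and 91.4% ± 0.706 with AS1842856, above ACVR2A and ACVR2B in every library.

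**Figure D3:**
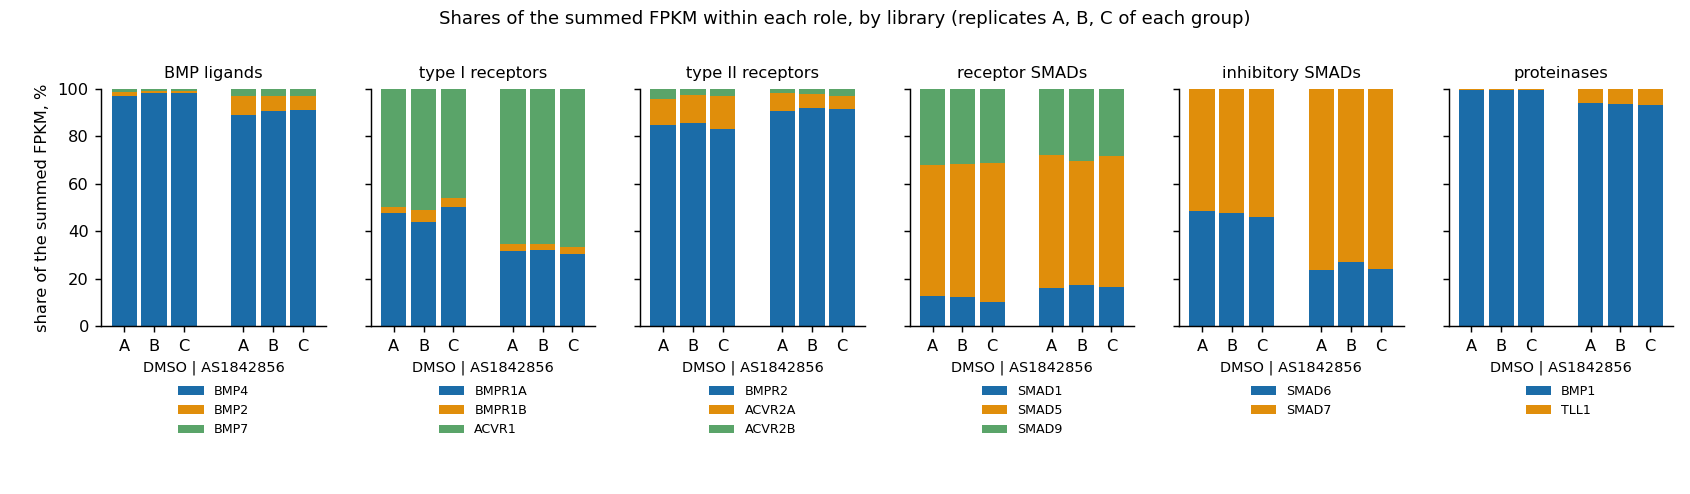
Share of the summed FPKM in percent (vertical axis, 0 to 100) that each gene held within 6 roles of the pathway, for DMSO replicates A, B and C (left bars) and AS1842856 replicates A, B and C (right bars). With AS1842856, BMP2 and BMP7 gained share among the ligands, ACVR1 over BMPR1A among the type I receptors, and SMAD7 over SMAD6 among the inhibitory SMADs.

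SMAD9 (ENSG00000120693, chromosome 13 from 36844831 to 36920765, minus strand) encodes SMAD8, a receptor SMAD that carries BMP signals. It had 52.7, 53.6 and 55.2 CPM in DMSO and 62.1, 66.2 and 57.7 CPM with AS1842856. The groups were separate, but AS1842856 replicate C lay close to DMSO replicate C. The mean rose from 53.8 ± 1.25 to 62.0 ± 4.26 CPM (SD, n = 3 each), and the log2 fold change was 0.21 with a standard error of 0.05 (95% interval 0.10 to 0.32, adjusted p = 0.000515, edgeR). When any 1 library was left out the change lay between 0.15 and 0.26, and the largest adjusted p was 0.0323.

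SMAD6 (ENSG00000137834, chromosome 15 from 66702228 to 66782848, plus strand) encodes the inhibitory SMAD that acts mainly on BMP signaling, and BMP signaling in turn is known to raise its transcription. It had 83.5, 84.2 and 81.2 CPM in DMSO and 51.8, 55.1 and 51.7 CPM with AS1842856. The 3 treated libraries were tightly grouped and well below the controls. The mean fell from 82.9 ± 1.59 to 52.9 ± 1.89 CPM (SD, n = 3 each), and the log2 fold change was -0.65 with a standard error of 0.05 (95% interval -0.75 to -0.54, adjusted p = 7.12e-27, edgeR). Among the 9 members tested it had the lowest log2 fold change.

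Of 8 further SMAD genes and regulators, all were tested, 5 were higher and 2 lower, and the median of their log2 fold changes was 0.27. Over all genes tested, 56.0% were called, 27.6% higher and 28.4% lower. SMAD7, the inhibitory SMAD that acts on TGF-beta and BMP receptors, had 52.1, 54.3 and 55.7 CPM in DMSO and 97.5, 87.9 and 96.0 CPM with AS1842856, and the log2 fold change was 0.79 with a standard error of 0.05 (adjusted p = 2.65e-37, edgeR). It thus moved the other way from SMAD6. SMAD1, a receptor SMAD, rose from 21.1 ± 1.68 to 37.7 ± 2.09 CPM (SD, n = 3 each), and the log2 fold change was 0.84 (adjusted p = 7.65e-23, edgeR). SMURF2, a ubiquitin ligase that degrades receptors and SMADs, fell from 105 ± 6.32 to 60.3 ± 3.38 CPM, and the log2 fold change was -0.79 (adjusted p = 1.21e-38, edgeR). SMURF2 overlaps CEP95 on the other strand, which held 20.9% as many counts. SMAD4, the partner of all receptor SMADs, had 45.6, 55.5 and 52.3 CPM in DMSO and 47.3, 43.8 and 43.0 CPM with AS1842856. Its groups overlapped, and its call (log2 fold change -0.19, adjusted p = 0.00434, edgeR) was lost with DESeq2 (adjusted p = 0.0538), with limma on FPKM (adjusted p from 0.112 to 0.205) and without DMSO replicate B (-0.13, adjusted p = 0.084).

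SMAD6 held 47.4% ± 1.21 of the summed FPKM of the inhibitory SMADs in DMSO and 24.9% ± 1.73 with AS1842856 (SD, n = 3 each), the rest being SMAD7. Their sum was 20.3 ± 0.260 FPKM in DMSO and 24.7 ± 0.815 FPKM with AS1842856. Among the receptor SMADs, SMAD9 held 31.7% ± 0.384 in DMSO and 28.8% ± 1.39 with AS1842856, SMAD1 11.7% ± 1.29 and 16.5% ± 0.561, and SMAD5 56.6% ± 1.64 and 54.7% ± 1.94. SMAD5 was the most abundant receptor SMAD transcript in all 6 libraries.

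GREM1 (ENSG00000166923, chromosome 15 from 32717974 to 32745107, plus strand) encodes gremlin, a secreted protein that binds BMP2, BMP4 and BMP7. It had 1 count in DMSO replicate C and 0 counts in the other 5 libraries. A count of 0 among the 57513403 counts of the AS1842856 group allows a level of up to 0.0522 CPM. No difference was detectable at this depth, and no fold is given.

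Of 14 further genes of secreted inhibitors and binding proteins, 8 were tested, 3 were higher and 4 lower, and the median of their log2 fold changes was -0.20. The share called among all genes tested was 56.0%. FST, which encodes the activin and BMP binding protein follistatin, had 3.87, 4.49 and 4.41 CPM in DMSO and 38.0, 42.0 and 37.7 CPM with AS1842856, and the log2 fold change was 3.21 with a standard error of 0.10 (adjusted p = 4.35e-85, edgeR). NOG, which encodes noggin, the classic BMP antagonist, had 6.97, 5.60 and 6.51 CPM in DMSO and 14.6, 11.7 and 14.3 CPM with AS1842856, and the log2 fold change was 1.07 with a standard error of 0.12 (adjusted p = 6.27e-15, edgeR). Both were higher in 3 of 3 AS1842856 libraries. FSTL1, a follistatin-like secreted glycoprotein, fell from 2578 ± 39.3 to 608 ± 9.05 CPM (SD, n = 3 each), and the log2 fold change was -2.09 with a standard error of 0.03 (adjusted p = 6.49e-151, edgeR). CHRDL1, a chordin-like antagonist of BMP4, fell from 208 ± 12.5 to 81.7 ± 2.67 CPM, and the log2 fold change was -1.35 with a standard error of 0.04 (adjusted p = 9.78e-88, edgeR). Members of this list thus moved in both directions, and chordin itself (CHRD) was among the 6 that were not tested.

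In order of mean FPKM in DMSO, the members ran from BAMBI (41.3 ± 0.930), BMP4 (14.7 ± 0.405) and BMP1 (13.2 ± 0.738) through SMAD6 (9.63 ± 0.178), SMAD9 (9.34 ± 0.216), BMPR2 (8.67 ± 0.377) and BMPR1A (4.27 ± 0.0929) to BMP2 (0.170 ± 0.0706) and BMP7 (0.156 ± 0.0278; SD, n = 3 throughout). The libraries of SMAD6 and SMAD9 overlapped in this order, and so did those of BMP2 and BMP7. With AS1842856 the order was BMP4 (51.4 ± 2.30), BAMBI (36.2 ± 0.976), BMPR2 (12.2 ± 0.638), BMP1 (10.9 ± 0.0879), SMAD9 (10.8 ± 0.746), SMAD6 (6.14 ± 0.221), BMPR1A (4.41 ± 0.0663), BMP2 (3.87 ± 0.424) and BMP7 (1.72 ± 0.0621). Here only BMP1 and SMAD9 overlapped among neighbours. BMP4 thus passed BAMBI, and BMP2 and BMP7 kept their places at the low end. GREM1 is not listed in the FPKM tables.

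**Figure D4:**
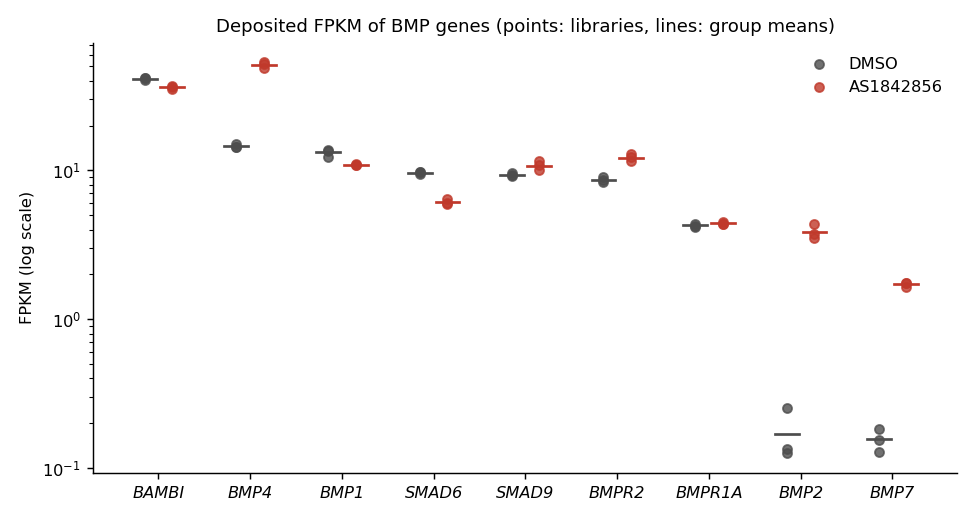
Deposited FPKM (vertical axis, log scale) of the 9 BMP genes listed there, in order of their DMSO mean, for DMSO (grey) and AS1842856 (red); points are libraries and lines are group means. BMP4 rises past BAMBI, and BMP2 and BMP7 rise from under 0.3 FPKM to between 1.65 and 4.34 FPKM.

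Of 10 genes known as transcriptional targets of BMP signaling, 8 were tested, 4 were higher and 4 lower, and the median of their log2 fold changes was -0.07. These calls stand beside 56.0% of all genes tested. The ID genes encode helix-loop-helix proteins that block differentiation factors, and ID1 to ID3 are the most widely used readout of BMP SMADs. ID1 had 332, 317 and 314 CPM in DMSO and 203, 195 and 192 CPM with AS1842856, and the log2 fold change was -0.71 with a standard error of 0.04 (adjusted p = 4.39e-49, edgeR). ID2 fell from 107 ± 1.17 to 58.1 ± 4.34 CPM (SD, n = 3 each; log2 fold change -0.89, adjusted p = 1.5e-45, edgeR), and ID3 fell from 605 ± 18.9 to 418 ± 16.0 CPM (log2 fold change -0.54, adjusted p = 3.28e-37, edgeR). ID4 had 129, 119.7 and 126 CPM in DMSO and 202, 195 and 198 CPM with AS1842856, and rose by 0.67 on the log2 scale (adjusted p = 4.48e-41, edgeR). ID1, ID2 and ID3 were therefore lower, and ID4 higher, in the same libraries in which the ligand genes were higher.

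Outside the ID family, the homeobox gene MSX1 had 3.23, 2.08 and 2.91 CPM in DMSO and 16.2, 15.7 and 18.2 CPM with AS1842856, and the log2 fold change was 2.57 with a standard error of 0.14 (adjusted p = 1.13e-46, edgeR). HEY1, a target shared with Notch, went from 3.30 ± 0.354 to 11.4 ± 1.12 CPM (SD, n = 3 each), and the log2 fold change was 1.78 (adjusted p = 8.91e-26, edgeR). ATOH8, a basic helix-loop-helix gene, fell from 52.3 ± 1.27 to 30.6 ± 2.16 CPM, and the log2 fold change was -0.78 (adjusted p = 5.97e-26, edgeR). The target genes of this list thus split evenly by direction. The calls over all genes tested split almost as evenly (27.6% higher and 28.4% lower). The split depends on which genes the list holds, and it was written with earlier results known. SMAD6, which BMP signaling is also known to raise, was lower and is counted among the members instead.

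**Figure D5:**
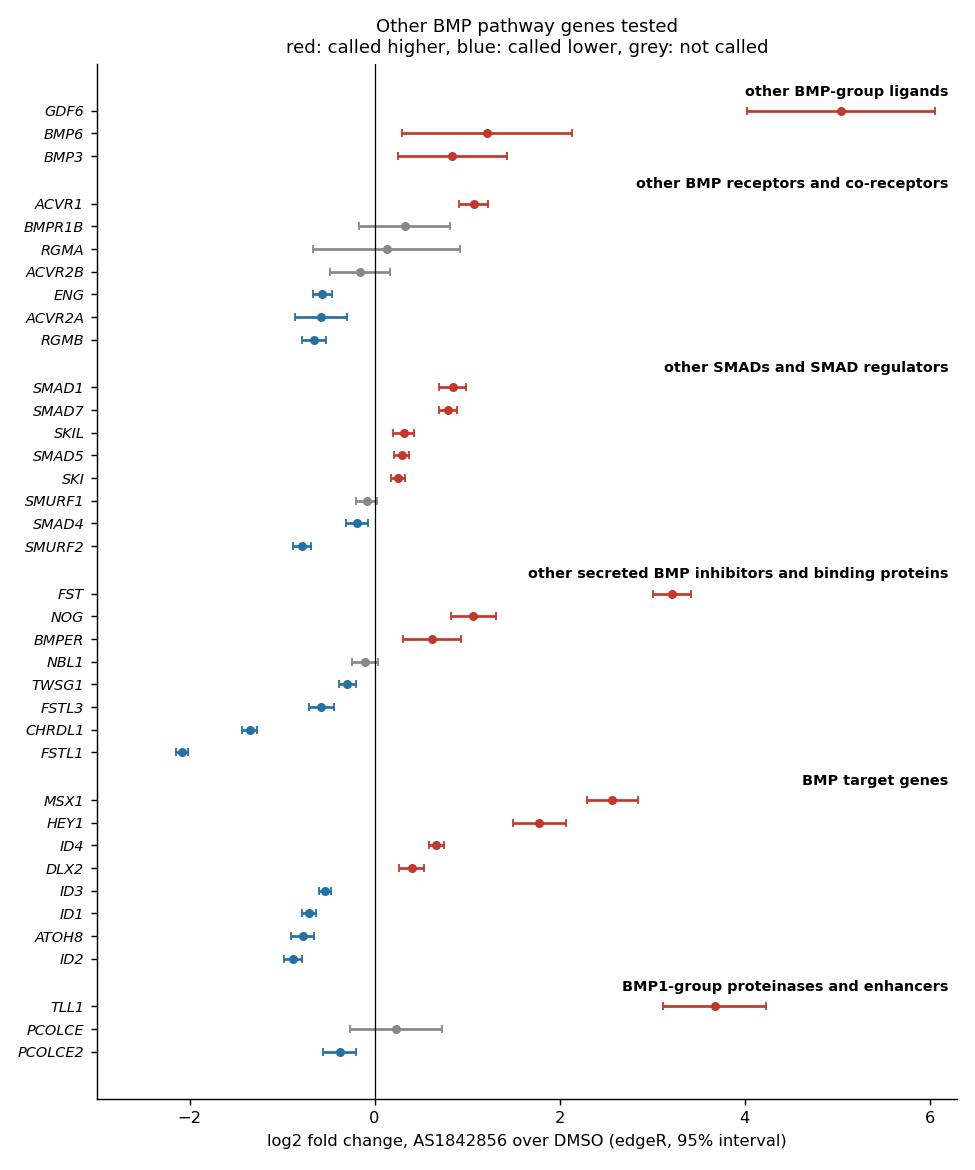
Log2 fold change, AS1842856 over DMSO (horizontal axis, edgeR, whiskers 95% intervals), of the 37 other BMP pathway genes tested, grouped by role and sorted by value; red called higher, blue called lower, grey not called. The groups of receptors, SMADs, inhibitors, targets and proteinases hold genes on both sides of 0, GDF6, BMP6 and TLL1 passed the filter only through AS1842856 libraries, and the value of GDF6 rests on 4 DMSO counts.

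Over all 56 other pathway genes, 37 were tested, 17 were higher, 14 lower and 6 not called, and the median of their log2 fold changes was 0.23. The 31 called are to be read against the 56.0% called among all genes, and they include GDF6, BMP6 and TLL1, which the filter let in only through their AS1842856 libraries. Called with a log2 fold change of at least 1 in size were 10 of the 37, beside 10.6% of all genes tested. No excess is read from this count. It includes GDF6, BMP6 and TLL1, which could enter the test only as higher genes, and the lists were written with earlier results known. GDF6, BMP6, ACVR1, FST, NOG, MSX1, HEY1 and TLL1 were higher, and FSTL1 and CHRDL1 were lower, but BMP6 was at 0.77 and not called without DMSO replicate C. FOXO1 itself had 3.69, 4.88 and 4.09 CPM in DMSO and 13.8, 13.5 and 14.0 CPM with AS1842856, and since the compound acts on the FOXO1 protein, this level is no check of its action. Genes that overlap members in the annotation held few counts. Highest was SMAD9-IT1, within an intron of SMAD9 and without shared exonic bases, with 1.15% as many counts as SMAD9. The genes that overlap BMP1 held at most 0.0680% as many as BMP1. Such counts do not measure the reads that could belong to either gene.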

How the data were processed

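RNA-Seq was measured in 6 libraries of BT549 cells. The authors deposited raw counts per gene, without normalization, and FPKM values per library, divided by gene length and library size, for 25015 genes. Mapping is given as STAR in the study's methods and as Bowtie 0.12.2, with CASAVA, in the submitters' processing notes, on GRCh38. The counting tool, the annotation and the use of strand are not given in the sources used here, so a gene and its partner on the other strand cannot be told apart. All 58735 gene identifiers were found in GENCODE release 29 (Ensembl 94), which gave symbols and positions.

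The counts were fitted with edgeR 4.0.16 in R 4.3.3 (filterByExpr at 10 counts and 15 in total, TMM, robust glmQLFit and glmQLFTest, no block), with Benjamini-Hochberg adjustment over 14338 genes and a threshold of 0.05. A standard error is the log2 fold change divided by the square root of F. Groups and replicate letters came from the sample labels. The study calls the libraries biological replicates. Counting intervals and the limit at 0 counts, 3 counts of the group total, reflect counting error alone, because reads were not tied to single molecules.

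The members and the pathway and marker lists were chosen with earlier results of these data known, and the lists were written from general knowledge. All members were described, and of each other list up to 2 of the largest rises and 2 of the largest falls among called genes with a mean of at least 1 CPM, and ID1 to ID4. BMP6 and the other genes outside this rule were named after their values were seen. Motifs and FPKM shares were chosen after the data were seen. The test was first checked on simulated counts. Alternatives were DESeq2 1.42.0 (Wald test, or its size factors in edgeR), library totals, all genes without a filter, genes with a mean of 50 counts or more, the replicate block, each library left out, and limma 3.58.1 with a trend on log2(FPKM + 1) or log2(FPKM + 0.1), with a minimum mean FPKM of 0.5 or without a filter. Promoter sequences are from RefSeq, and gene positions are 1-based.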

Additional observations from a re-analysis of the deposited data

How the results depend on the processing

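The 9 BMP members tested kept their direction and their side of the threshold in all 135 values over 15 alternatives, 9 with every library and 6 with a library left out. On log2(FPKM + 1) the log2 fold change was 2.06 for BMP2 and 1.23 for BMP7, since that pseudocount is large beside their DMSO levels. Over all genes, 8029 were called, 6523 to 8030 with every library and 7427 to 7678 with a library left out, and 49.2% of the calls were higher (47.2% to 50.3%). Genes called with a log2 fold change of at least 1 in size numbered 1520, and 1832 without a filter on low counts. They numbered 931 among genes with a mean of 50 counts or more, a filter that leaves out low genes. On log2(FPKM + 1), a scale on which low genes change less by construction, they numbered 545 (filtered) and 540 (unfiltered). On log2(FPKM + 0.1) with the filter they numbered 1037. Of the other pathway genes 31 were called, 25 to 31 with every library and 29 to 31 with a library left out. Of their 535 values, 516 kept direction and side, 17 lost the call (BMP3, BMP6, ACVR2A and SMAD4) and 2 changed sign without being called, ACVR2B (-0.15 with every library, -0.29 to 0.13 with a library left out, the latter without DMSO replicate A) and RGMA (0.13 with every library, -0.31 to 0.32, the former without AS1842856 replicate A). The cause was not tested. With the replicate letter as a block, 7862 genes were called and no member or other pathway count changed. No clear pairing by letter was seen. Deviations of libraries with the same letter had correlations of 0.042, -0.012 and -0.0033 for A, B and C, and A but not B or C correlated best with its own letter. With 3 libraries in each group, these values cannot exclude a weak pairing. Other scalings moved the median log2 fold change of all genes to 0.0055 at most. A fit without 1 library assumes that the remaining 2 of its group vary like the other group. Depth limits GREM1, and the sizes of the BMP2, BMP7 and GDF6 changes, through their few DMSO reads.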
